A study of Mus musculus with 4 samples.

Results

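Predicted gene models are loci that the mouse annotation lists under provisional names, with the prefix Gm or the suffix Rik, because no gene with a settled function has been assigned to them. The 159 models studied here are all rows of the deposited table whose symbol is Gm followed by digits (137) or ends in Rik (22), out of 1175 listed genes. The table holds bulk RNA sequencing of mouse bone, with 2 libraries from Exercise mice and 2 from Sedentary mice, all wild type and 13 weeks old. The Exercise mice were given 5 weeks of medium-intensity treadmill running that began at 8 weeks of age, and the Sedentary mice had none. Bones were flushed of marrow and ground before extraction, so each library mixes the RNA of every cell left in the bone, and more cells of a type and more RNA per cell cannot be told apart. Whether the 2 libraries within a group stem from different animals is not stated.

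The names cover several kinds of locus. Processed pseudogenes are copies of a messenger RNA that was reverse transcribed and inserted elsewhere in the genome, usually without the introns of the parent gene. Read-through models join exons of neighbouring genes on the same strand into 1 transcript, so most of their bases also belong to those genes. Others are long non-coding RNAs, antisense transcripts, open reading frames without a settled function, and single-exon loci that GENCODE keeps under the label TEC until there is experimental proof of them.

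Short stretches show why a sequencing read may fit more than 1 gene here. They were read from GENCODE M21 transcripts on GRCm38, 5′ to 3′. Gm13835 is a pseudogene of Psma3, which encodes a subunit of the 20S proteasome, and all 685 bases of the model align to the Psma3 transcript without a difference. The 60 bases printed for it (chr6:31142462-31142521, minus strand) run unbroken in the model, while in Psma3 the same 60 bases cross a junction between exons. Gm5831 (chr9:42965546-42965605, plus strand) differs from Sp140 (chr1:85641741-85641800, plus strand), the gene of a nuclear body protein of immune cells, at 11 of 881 aligned bases, and capitals mark the 3 differences in this stretch. For the read-through models Gm49339 and Gm49342, lower case marks the last 15 bases of the exon before the junction, which overlaps the upstream gene. Capitals mark the first 15 bases of the exon after the junction, which overlaps the downstream gene. The junction of Gm49339 joins Lilr4b to Lilrb4a across the intron chr10:51480754-51491196, and that of Gm49342 joins Pnp to Pnp2 across chr14:50951023-50963104, both on the plus strand.
Gm13835: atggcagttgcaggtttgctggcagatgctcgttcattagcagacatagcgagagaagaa
Gm5831: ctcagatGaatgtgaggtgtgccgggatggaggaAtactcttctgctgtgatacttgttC
Sp140: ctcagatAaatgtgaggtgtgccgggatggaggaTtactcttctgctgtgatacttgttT
Gm49339: tgctgctataccttgGTCTTATTCTGGAAC
Gm49342: gggcagatgctgttgTGCAAGGTCACGCAG

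The values are estimated counts, and they summed over the 1175 listed genes to 1160883 and 2680636 in the Exercise libraries (replicates 1 and 2), against 594856 and 516963 in the Sedentary libraries (replicates 1 and 2). Every listed gene had a higher mean count in Exercise, and the rule that chose the genes is not given in the sources used here. Values are therefore compared as shares, counts per 1000000 counts of the listed genes, and a log2 share ratio above 0 means a larger share of the table in Exercise. Of 43 markers of bone, marrow and muscle cells looked up, 9 were listed, with 1 of 4 for osteocytes (Sost) and 0 of 8 for osteoblasts. The other 8 were markers of blood and marrow cells, 4 of 6 for B lymphocytes (Cd22, Pax5, Ighm and Rag1), 2 of 5 for erythroid cells and 2 of 6 for granulocytes, and their part in the results was not tested. Because the table is a selection, the missing markers say nothing of their expression, and the labelled tissue could not be checked further.

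The direction of these shares is partly set by which genes the table lists, so the counts are given as a description and not as support for a direction. Every listed gene above 0 in a Sedentary library had a count ratio of at least 2.74 (models) or 2.48 (other genes), while the summed totals of the Exercise libraries were 3.46 times those of the Sedentary libraries, which leaves little room for a lower share. All 91 models and all 79 other genes with a mean under 100 counts had a log2 share ratio above 0. The models made up 3.30% and 4.11% of the table in the Exercise libraries, against 2.55% and 2.45% in the Sedentary libraries. The log2 share ratio was above 0 for 149 of the 159 models, where 64.1% of all listed genes had one above 0. With edgeR and the study's thresholds, p under 0.05 before adjustment with a log2 ratio beyond 0.25 either way, 41 models were higher (25.8%) and 0 were lower, where 11.3% of all listed genes were higher and 0.0851% lower under the same selection. After Benjamini-Hochberg adjustment over the 1175 genes, 2 models passed 0.05, Gm49909 and Gm13835, where 0.34% of the listed genes did. The counts turned on single libraries, for the models as for all listed genes. Without Sedentary replicate 1, 15 models were past the study's thresholds (beside 4% of all listed genes), and without Sedentary replicate 2 there were 17 (beside 3.74%), with 0 past the adjusted p in both cases. Without Exercise replicate 1, 132 were past the thresholds (beside 55.3%) and 126 past the adjusted p (beside 55.4%), and without Exercise replicate 2 there were 63 (beside 30.7%) and 49 (beside 27.1%). The 1 library left in a group then has no spread of its own. Of the models named, 16 lost their call at the study's thresholds without Sedentary replicate 1 and 13 without Sedentary replicate 2.

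The shares were also compared library by library. In 111 models the Exercise pair stood wholly above the Sedentary pair, against a background of 36.0% of listed genes. It stood wholly below in 2 models, against 16.1%, and the pairs overlapped in 46. These percentages are no like background for low models. Under a mean of 100 counts, 81 of 91 models (89.0%) and 64 of 79 other genes (81.0%) stood wholly above. From 100 counts up, 30 of 68 models (44.1%) and 248 of 937 other genes (26.5%) did. All those wholly below, 2 models and 187 other genes, lay in this upper range. The median log2 share ratio of the models was 1.90, or 1.52 with the models at 0 in both Sedentary libraries set to their lower bound, and it was 0.14 over all listed genes. Gm models had a median of 2.24, or 1.68 with zeros at their bound, and 37 of 137 past the study's thresholds. Rik models had a median of 0.31 either way and 4 of 22, where 11.3% of all listed genes were higher past the thresholds. The median mean count was 57.4 for Gm and 207 for Rik models, and the difference between the names was not tested.

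The gene models were low in count, and the ratio varied with the count. Their median mean count was 72.7, against 652 for the other listed genes. The 91 models with a mean under 100 counts had a median log2 share ratio of 2.16 with zeros at their bound, and the 79 other genes in that range had 1.72. At a mean of at least 100 counts, the 68 models had a median of 0.55 and the 937 other genes 0.04. In the upper range 24 models were higher past the study's thresholds (35.3%), and of the other genes 80 were higher and 1 lower (8.64% in all). In the lower range 17 models (18.7%) and 12 other genes (15.2%) were higher and 0 were lower. Of all listed genes, 11.4% were past the thresholds.

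**Figure D1:**
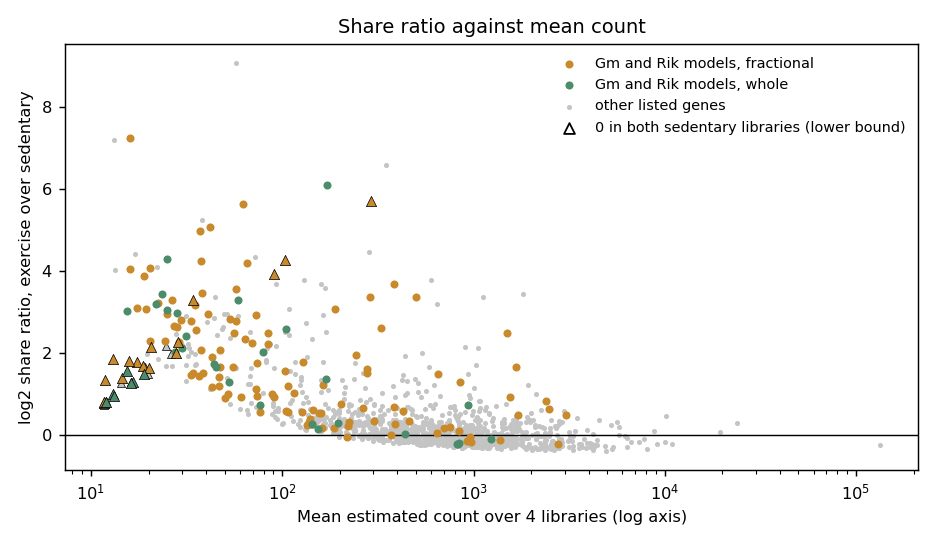
The log2 share ratio of Exercise over Sedentary (vertical axis) is plotted against the mean estimated count over the 4 libraries (log axis), 1 point per listed gene. Fractional models (125) and whole models (34) mostly lie above 0, and triangles mark genes at 0 in both Sedentary libraries, drawn at their lower bound.

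Whether a count was a whole number followed the kind of locus closely. Of the 159 models, 125 (78.6%) had a fractional value in at least 1 library, against 44.7% of the other listed genes. All 50 models with a near-identical copy elsewhere in the genome (at least 95% identity over at least 50% of the longest transcript) were fractional, and so were all 23 read-through models. Of the 49 models with no copy by this definition and no overlapping exon of another gene, 30 were whole. A model in this class can still hold sequence near-identical to a shorter model. Gm43305, fractional and in this class, is near-identical to 87.7% and 100% of the longest transcripts of 2 other models. The step that made the fractions is not given in the sources used here.

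**Figure D2:**
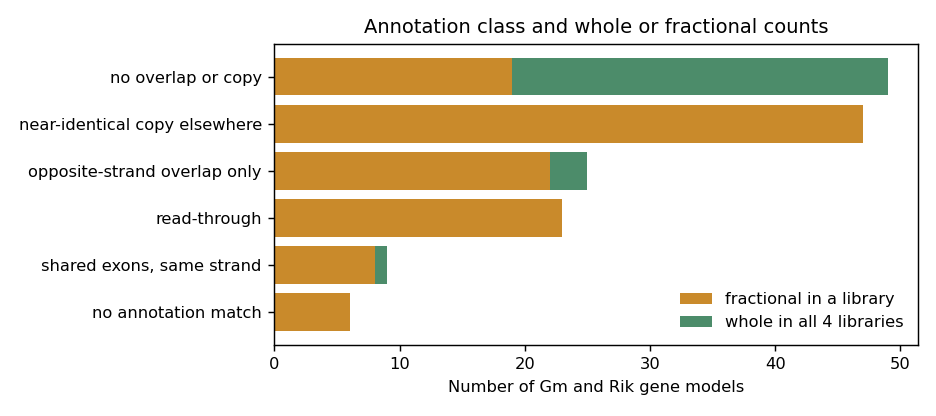
Each bar is the number of gene models in 1 annotation class, split into models with fractional values and models whole in all 4 libraries. Near-identical copies (47 that are not already in an overlap class) and read-through models (23) hold no whole model, and the class without overlap or copy holds 30 of the 34.

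Whole and fractional models were described apart, and their numbers above 0 are not read as a result. Of the 34 whole and 125 fractional models, 22 and 69 had a mean under 100 counts. Every listed gene in that range had a log2 share ratio above 0. Of the 34 whole models, 30 had a log2 share ratio above 0, 6 were past the study's thresholds and the median was 2.28, or 1.42 with zeros at their bound. Of the 125 fractional models, 119 were above 0, 35 were past the thresholds and the median was 1.68, or 1.57 with zeros at their bound. Past the thresholds were thus 17.6% of the whole and 28% of the fractional models. Among the other listed genes, the 562 whole ones had a median of 0.03, with 5.34% past the thresholds. Their median mean count was 652.5, against 44.6 for the whole models. The 454 fractional ones had a median of 0.17, with 13.9% past the thresholds. The difference between whole and fractional models was not tested, because the same 4 libraries stand behind every model.

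Of the 6 whole models with the highest counts, 1 had both Exercise shares above both Sedentary shares. B230219D22Rik (chromosome 13, 55693124 to 55703500), a protein-coding model, had 647 and 2565 counts in the Exercise libraries, against 282 and 228 in the Sedentary libraries. Its shares did not overlap between the groups, with a log2 share ratio of 0.73 ± 0.28 (SE) and an edgeR adjusted p of 0.418. The coding model I830077J02Rik had 871 and 1574 counts in Exercise, against 463 and 400 in Sedentary.

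I830077J02Rik and the intergenic long non-coding RNA F730016J06Rik were the 2 models with both Exercise shares below both Sedentary shares. F730016J06Rik had shares of 666 and 628 in Exercise, against 755 and 756 in Sedentary, and a log2 share ratio of -0.22 ± 0.14 (adjusted p = 0.487). For I830077J02Rik the ratio was -0.22 ± 0.18. Neither passed the study's thresholds. The coding models 6430548M08Rik, 4930438A08Rik and 9430015G10Rik had overlapping shares and ratios of -0.09, -0.20 and 0.02.

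The 2 models past the adjusted threshold stood apart in both Exercise libraries. Gm49909 had 1890.24 and 4253.75 counts in the Exercise libraries, against 304.8 and 257.24 in the Sedentary libraries. Its shares were 1608 ± 29.3 in Exercise and 505 ± 10.5 in Sedentary (SD, n = 2 each), which do not overlap, and the log2 share ratio was 1.67 ± 0.14 (edgeR adjusted p = 0.02). The annotation used here has no entry under this symbol, so its position and overlaps were not analysed here. It is 1 of 6 models without an entry, all of them fractional and all with a higher share, 4 of them past the study's thresholds. Over all listed genes, 49.3% were fractional, 64.1% had a higher share and 11.3% were higher past the thresholds. Of the 6 models, 2 had a mean of at least 100 counts, and every listed gene under that mean had a higher share.

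Gm13835, the Psma3 pseudogene, had 273.96 and 888.52 counts in the Exercise libraries and 0 in both Sedentary libraries. Its share was at least 52.3-fold higher in Exercise, when each Sedentary library is set to a floor of 3 counts, and the edgeR adjusted p was 0.0208. The bound was 43.5 with Exercise replicate 1 alone and 61.1 with Exercise replicate 2 alone. Psma3 itself is not among the listed genes, so the parent was not analysed here.

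The models at 0 in both Sedentary libraries numbered 23, or 14.5% of the models, and 9 of the 1016 other listed genes were at 0 in both. Among genes with a mean under 100 counts, 21 of 91 models (23.1%) and 9 of 79 other genes (11.4%) were at 0 in both. The counts of the 23 models ran from 2 to 273.96 in Exercise replicate 1 (median 15.36) and from 11.51 to 888.52 in Exercise replicate 2 (median 47). The lower bounds of their share ratios ran from 1.72 to 52.3 with a median of 3.13. Floors cover counting error only. The Sedentary totals are the smaller ones, and 3 counts are a share of 5.04 and 5.80 there, against 2.58 and 1.12 in the Exercise libraries.

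**Figure D3:**
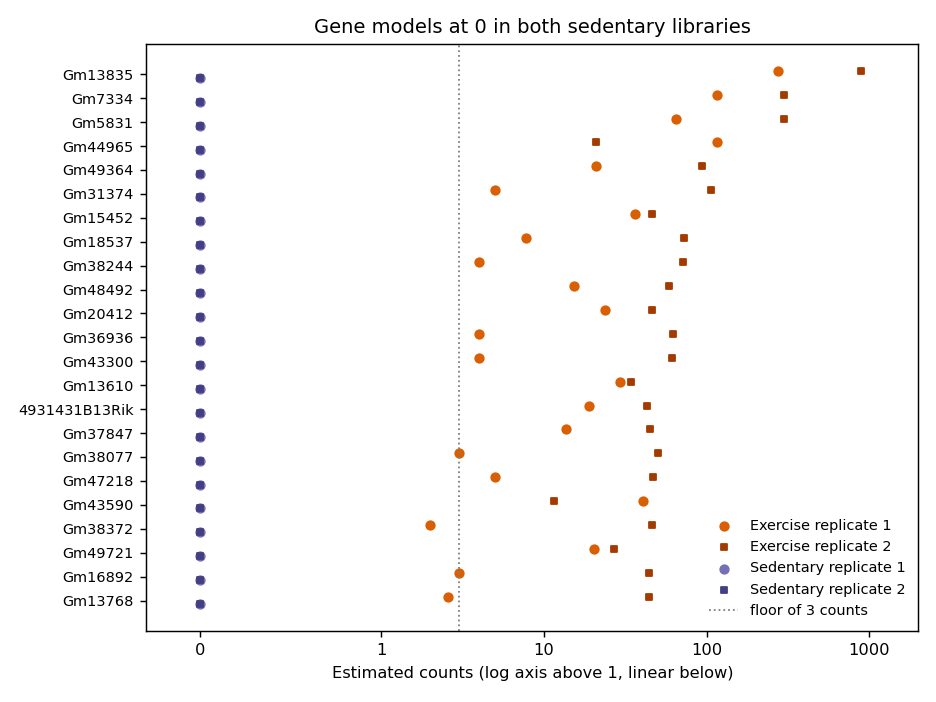
Estimated counts in each library for the 23 models at 0 in both Sedentary libraries, on an axis that is logarithmic above 1, with the floor of 3 counts dotted. Gm13835, Gm7334 and Gm5831 lie far above the floor in both Exercise libraries, and several models lie near it in Exercise replicate 1.

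Pseudogenes led this group. Gm7334 (chromosome 17, 50698688 to 50699443), whose 756 bases are identical to the transcript of the antiproliferative gene Btg3, had 115.32 and 296.48 counts in Exercise and a share at least 19.4-fold higher. Gm5831 had 64.35 and 296.91 counts in Exercise and a share at least 15.3-fold higher. Both were past the study's thresholds, with adjusted p of 0.131 and 0.213.

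Gm5831 also lies wholly within exons of Arhgef12 on the opposite strand, and whether counting used strand is not given. Arhgef12 had 969.2 and 3075.2 counts in Exercise, against 703.73 and 542.98 in Sedentary, a log2 share ratio of -0.17 ± 0.20. Gm15452, a pseudogene of the cyclin-dependent kinase subunit gene Cks2, had 36.39 and 46.13 counts in Exercise, at least 4.48-fold higher in share.

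For 1 pseudogene the parent was listed too. Gm18537 aligns to the transcript of Dennd4c, a Rab guanine nucleotide exchange factor, over 1503 bases with 1 difference, and had 7.74 and 73.01 counts in Exercise and 0 in both Sedentary libraries. Its share was at least 3.13-fold higher, or 1.23-fold with Exercise replicate 1 alone. Dennd4c had 284.26 and 947.99 counts in Exercise, against 189 and 160 in Sedentary, a log2 share ratio of -0.06 ± 0.23. The parent was counted in all 4 libraries and the copy in the Exercise libraries alone, and how reads were divided between them is not given.

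The remaining named models of this group were lower. Gm49364, a read-through model, had 20.83 and 93.18 counts in Exercise and a bound of 4.86-fold. Gm20412, which lies wholly within Tgm2 (a transglutaminase gene) on the opposite strand, had 23.68 and 45.87 counts and a bound of 3.46-fold. Both had similar shares in the 2 Exercise libraries, within 1.94-fold of each other. Gm48492, with 16 near-identical copies, had 15.36 and 59.03 counts and a bound of 3.25-fold.

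In 3 further models the bound rested on Exercise replicate 2. Gm31374 had 5 and 105.93 counts in the Exercise libraries, Gm38244 had 4 and 72, and Gm36936 had 4 and 62. With Exercise replicate 1 alone, the bounds were 0.794, 0.635 and 0.635, so that library by itself did not place them above the floor. Gm31374 is an intergenic long non-coding RNA and the others are TEC models.

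A further 23 models were at 0 in 1 Sedentary library, and 21 models had 1 to 3 Sedentary counts in all after rounding. Gm37527, a whole-count TEC model on chromosome 6 (41692640 to 41696186), had 13 and 668 counts in Exercise, against 1 and 1 in Sedentary, and the pooled share ratio was 98.5 (95% Clopper-Pearson interval 27.2 to 815). Gm49015, an antisense model, had 15.42 and 233.56 counts in Exercise, against 0 and 1.38 in Sedentary, with a pooled ratio of 52.2 (12.8 to 2858). Both were past the study's thresholds with an adjusted p of 0.36. With Exercise replicate 1 alone the ratio was 6.23 (1.41 to 56.8) for Gm37527 and 10.7 (2.21 to 605) for Gm49015. The call was lost without Exercise replicate 2 for Gm37527 and without Sedentary replicate 1 for Gm49015. Gm49015 is 99.7% identical, over 100% of its longest transcript, to Gm48492, described above. Those 2 models are therefore not counted as independent evidence.

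Gm46620, which has no annotation entry, had 36.5 and 113.11 counts in Exercise, against 0 and 1.56 in Sedentary, and a pooled ratio of 27.8 (5.91 to 181). Gm3325, a pseudogene on chromosome 13, had 10 and 248.81 counts in Exercise, against 2 and 1 in Sedentary, and a pooled ratio of 25.0 (8.46 to 122). With Exercise replicate 1 alone the ratios were 22.4 (4.44 to 148) for Gm46620 and 3.19 (0.822 to 18.1) for Gm3325. The call of Gm3325 was lost without Exercise replicate 2 and without each Sedentary library, and that of Gm46620 without Sedentary replicate 1. In each of these 4 models every Exercise share was above every Sedentary share. The intervals cover counting error only, not the spread between libraries.

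Gm47173 and Gm47171 overlap each other on opposite strands of chromosome 9. Gm47173 had 12.13 and 153.66 counts in Exercise, against 0 and 1 in Sedentary, and Gm47171 had 11.87 and 136.34, against 1 and 0. Their pooled ratios were 48.0 (8.50 to 1909) and 42.9 (7.57 to 1703), or 11.6 and 11.4 with Exercise replicate 1 alone, and both calls were lost when each Sedentary library in turn was left out. Such near-equal counts in all libraries could not be assigned to a strand from the table, and the pair is not counted as independent evidence.

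Read-through models were set against the listed genes they join. As a class, 21 of 23 had a log2 share ratio above 0, with a median of 0.93, and 9 were past the study's thresholds, where 64.1% of all listed genes were above 0 and 11.3% past the thresholds. A median of 5.60% of their exonic bases belonged to no other gene. Gm20605, which joins Lrch4 and Sap25, had 1984.83 and 3381.02 counts in Exercise, against 446.03 and 420.44 in Sedentary.

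Its shares of 1486 ± 317 in Exercise and 782 ± 44.9 in Sedentary (SD, n = 2 each) did not overlap, with a log2 share ratio of 0.93 ± 0.19 and an edgeR adjusted p of 0.231. Gm44965, which joins the zinc finger genes Repin1 and Zfp775 and has no base of its own, had 115.5 and 21 counts in Exercise and 0 in both Sedentary libraries. Its bound was 9.90-fold with both Exercise libraries, and 18.3 and 1.44 with Exercise replicate 1 and 2 alone.

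Gm49339 had a log2 share ratio above those of both genes it joins, which encode leukocyte immunoglobulin-like receptors. It had 2032.52 and 6295.03 counts in Exercise, against 706.7 and 571.39 in Sedentary, with a log2 share ratio of 0.84 ± 0.19 (adjusted p = 0.24) and shares that do not overlap. Lilrb4a, which covers 92.8% of its exonic bases, had 1956.15 and 4857.22 counts in Exercise, against 1083.47 and 884.5 in Sedentary, a ratio of -0.01 ± 0.14. Lilr4b had a ratio of -0.27 ± 0.14. These differences between overlapping genes were not tested, since the counts are not independent.

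Other joined genes varied. Gm42715 had 1010.46 and 1765.67 counts in Exercise, against 506.94 and 427.37 in Sedentary, and overlapping shares (log2 share ratio -0.14 ± 0.18). Srcap, the chromatin remodelling ATPase gene that covers 76.4% of it, had 325.89 and 1034.34 counts in Exercise, against 94.2 and 98.38 in Sedentary, a ratio of 0.94 ± 0.25. Gm49342, the model of the purine nucleoside phosphorylase genes shown above, had overlapping shares of 1209 and 1034 in Exercise, against 1106 and 1319 in Sedentary (ratio -0.11 ± 0.17). Gm49336, which shares exons with another gene on its strand, had a ratio of 0.09 ± 0.36 and overlapping shares.

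**Figure D4:**
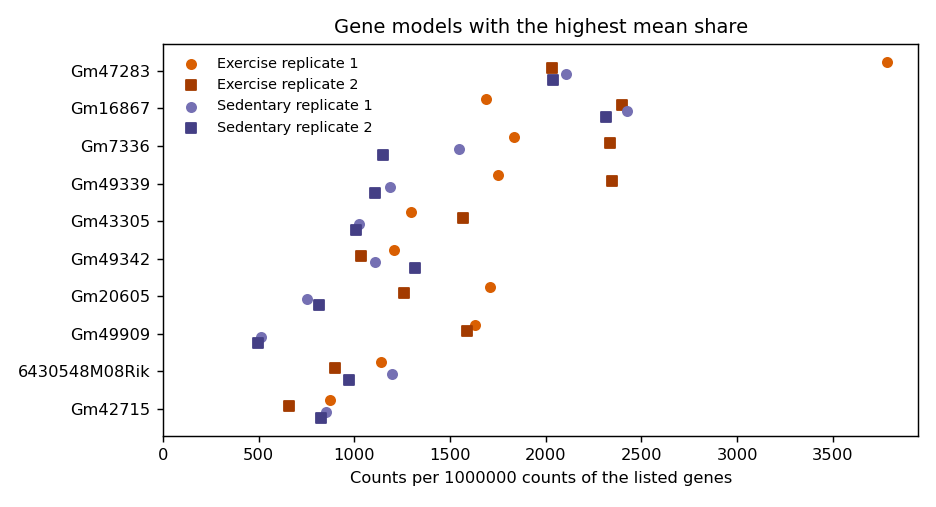
Shares of the 10 models with the highest mean share, 1 point per library, in counts per 1000000 counts of the listed genes. The points of the groups are apart for Gm7336, Gm49339, Gm43305, Gm20605 and Gm49909, and they overlap for the other models.

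Abundant models with near-identical copies gave mixed values. Gm7336, a pseudogene of the glycolytic gene Gapdh with 73 near-identical copies, had 2130.44 and 6258.27 counts in Exercise, against 918.69 and 593.58 in Sedentary, with a log2 share ratio of 0.63 ± 0.21 and shares that do not overlap. Gm47283, on chromosome Y, had 4392.24 and 5454.14 counts in Exercise, against 1253.83 and 1052.46 in Sedentary. Its shares were 3784 and 2035 in Exercise, against 2108 and 2036 in Sedentary, so only Exercise replicate 1 was above the Sedentary pair, and the ratio was 0.49 ± 0.30.

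Gm16867, which overlaps the Golgi nucleotidase gene Entpd4 on the opposite strand, had the second highest mean share of the models. Its shares were 1690 and 2398 in Exercise, against 2425 and 2314 in Sedentary. They overlap, and the ratio was -0.21 ± 0.20. Gm43305, a processed transcript with no overlap and no copy over most of its length, had shares of 1298 and 1569 in Exercise, against 1026 and 1008 in Sedentary, which do not overlap (ratio 0.50 ± 0.16, adjusted p = 0.36).

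Models near-identical to 1 listed gene were compared in a family chosen after its values were seen. Of the models, 10 are near-identical to parts of the listed gene D10Wsu102e, and all 10 had a log2 share ratio above 0, from 0.17 to 2.34. D10Wsu102e had a ratio of 0.12 ± 0.20. Of these 10, Gm42860 and Gm45322 are also near-identical to the listed genes Noct and Slc38a6. Noct had a ratio of 0.43 ± 0.40 and Slc38a6 one of 0.56 ± 0.38. All 10 models also had a higher share in Exercise replicate 2 than in replicate 1, by 1.18 to 5.70 times, and 2 were past the study's thresholds. These counts stand beside 149 and 126 of the 159 models, and the copies share sequence, so they are not independent observations. Near-identical models also had unlike values. Gm21092 and Gm21811, 99.2% identical where they align, had log2 share ratios of 0.67 and -0.17. Gm43590, and Gm45322 of the family above, are both near-identical to Gm42860. Their shares in Exercise replicate 2 were 0.123 and 1.52 times those in replicate 1.

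By biotype, all 38 TEC models had a log2 share ratio above 0 (median 3.01, or 2.38 with zeros at their bound), and 7 were past the study's thresholds. Of 28 pseudogenes 27 were above 0, with a median of 2.08, or 1.58 with zeros at their bound, and 6 were past. Of 36 protein-coding models 29 were above 0, with a median of 0.80, and 10 were past. The 12 processed transcripts were all above 0 and 7 were past, as were 3 of 15 antisense and 4 of 20 intergenic long non-coding models. By overlap, 24 of the 25 models that overlap other genes on the opposite strand alone were above 0 and 8 were past. All of these shares stand beside the 64.1% of listed genes above 0 and the 11.3% past the thresholds. Every listed gene with a mean under 100 counts was above 0, so the 64.1% is no like background for low biotypes. A mean of at least 100 counts was reached by 7 of the 38 TEC and 3 of the 15 antisense models.

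The 2 Exercise libraries differed from each other more for these models than for other genes. The share was higher in Exercise replicate 2 than in replicate 1 for 126 of 159 models and for 609 of 1016 other genes. It was over 4-fold higher in replicate 2 for 42 models and 28 other genes, and over 2-fold higher in replicate 1 for 5 models and 26 other genes. Of the 42 models, 36 had a mean under 100 counts, as had 16 of the 28 other genes. In the range from 100 counts up, 6 of 68 models and 12 of 937 other genes were over 4-fold higher in replicate 2. Among models with a mean of at least 100 counts, the log2 ratio between libraries had an SD of 1.22 in the Exercise pair and 0.51 in the Sedentary pair, against 0.63 and 0.25 for other genes in that range. With 1 library against 1, these are descriptions, and their part in the results was not tested.

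**Figure D5:**
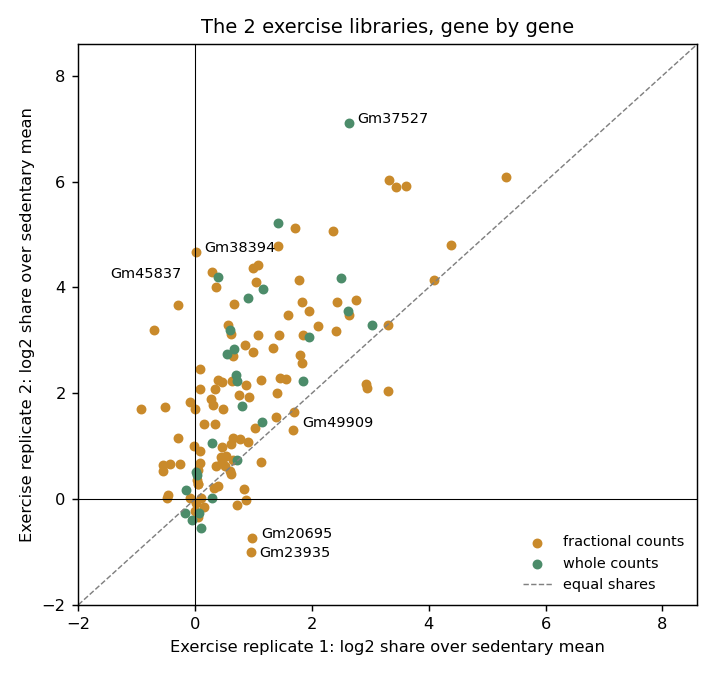
For the 136 models above 0 in a Sedentary library, the log2 of each Exercise share over the Sedentary mean share, replicate 1 across and replicate 2 up, with a dashed line where they are equal. Most points lie above the line, with Gm37527, Gm38394 and Gm45837 far from it, and Gm20695 and Gm23935 lie below it.

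Gm37527, described above, had a share 22.3 times higher in Exercise replicate 2 than in replicate 1. Gm38394, a read-through of Zc3h11a and Zbed6, had 25.8 and 1492.68 counts in Exercise, against 13.52 and 11.04 in Sedentary, with a share 25.1 times higher in replicate 2. Its log2 share ratio was 3.69 ± 1.43, and without Exercise replicate 2 it was -0.0043. Gm45837, a read-through of the phosphodiesterase gene Pde2a and Arap1, had 30 and 1101.19 counts in Exercise, against 17 and 7 in Sedentary.

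Its log2 share ratio was 3.36 ± 1.31, and 0.27 without Exercise replicate 2. For both models Exercise replicate 1 lay within the Sedentary range and replicate 2 above it, so the groups overlap, although both passed the study's thresholds. The opposite order was seen in Gm20695, a read-through of Cluap1 and Naa60, with shares of 477 and 146 in Exercise, against 161 and 324 in Sedentary. Naa60, an acetyltransferase gene that covers 46.1% of its exonic bases, had 249.43 and 1293.69 counts in Exercise, against 126.66 and 30.4 in Sedentary.

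Gm23935, annotated as a miRNA and with 3 near-identical copies, had shares of 639 and 165 in Exercise, against 359 and 301 in Sedentary. Its log2 share ratio was 0.27 ± 0.61, and the groups overlap. Over all models, leaving out Exercise replicate 1 gave a median log2 share ratio of 2.26, and leaving out Exercise replicate 2 gave 0.87.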

How the data were processed

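Per the labels, polyadenylated RNA was sequenced with a Smart-seq2 protocol adapted to carry molecular barcodes. The submitters' processing notes name STAR, HTSeq and mm10, without versions, and the annotation used for counting is not given. The authors deposited estimated counts per gene with up to 2 decimals and no scaling to depth. All 4 count columns were used and 0 were left out. The true depth is unknown, because the table lists 1175 selected genes.

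Estimated counts were rounded, scaled by column totals and fitted over all 1175 genes in edgeR 4.0.16 (R 4.3.3) with its quasi-likelihood test. The contrast was Exercise over Sedentary and two-sided, with neither covariates nor a filter. Benjamini-Hochberg adjustment ran over all genes. The p-values reflect only how far these samples scatter, possibly for technical reasons, and are conditional on the unknown selection. An exact permutation test of 2 against 2 cannot give a p under 0.333 and was not run. The procedure was tested on simulated data (5 runs). These gave both groups the same spread and left out the selection of genes. They therefore cannot show how the test behaves with unequal spread or in a selected table. Counts were called whole within 1e-09.

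GENCODE M21 (GRCm38, the same build as mm10) gave an entry by symbol for 153 of the 159 models. Copies were found with megablast of BLAST 2.17.0. A model at 0 in both Sedentary libraries is set against 3 counts per Sedentary library as a floor, and one with up to 3 Sedentary counts as a pooled ratio with an exact 95% interval. Python 3.11.15 was used for tables and plots.

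The models named were the 10 with the highest mean share, those past an adjusted p of 0.05, the 12 with the largest ratio past the study's thresholds (mean of at least 20 counts), the 12 highest at 0 in both Sedentary libraries, the 6 highest that overlap other genes, the 3 at each end of the ratio between the Exercise libraries, and the 6 highest whole ones. The models and lists were chosen with earlier results of these data known. The alternatives tried were scaling by DESeq2 1.42.0 size factors or by TMM, its Wald test, limma-voom (limma 3.58.1), 2 filters on low counts, a replicate block, the omission of each library in turn, and a fit of whole-count genes alone.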

Additional observations from a re-analysis of the deposited data

How the results depend on the processing

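Of 159 models, 41 were past the study's thresholds and 2 past the adjusted p. Limma-voom gave 25 and 0 (5.79% of all listed genes past the thresholds, and 18 of the 41 models among the 25), the DESeq2 Wald test 57 and 13 (13.3%, 38 of the 41), and whole-count genes alone (34 models) 5 and 0 (7.05%), with 30 higher shares. Leaving out 1 library gave 15 to 132 past the thresholds (132 without Exercise replicate 1, of which 7 were lower, beside 55.3% of all listed genes, and 63 without Exercise replicate 2, beside 30.7%), 0 to 126 past the adjusted p, 140 to 149 with a higher share, and a median log2 share ratio of 0.87 to 2.26. A lone library in a group is there assumed to vary like the other group. DESeq2 size factors and TMM factors gave 39 (12.1%) and 40 (11.5%). The filter at a mean of 20 counts kept 138 models and gave 36 (11.2%), and filterByExpr kept 123 and gave 42 (13%), of which 32 were among the 41. All 4 gave 2 past the adjusted p.

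The labels number the replicates in both groups. The deviations of the same-numbered libraries had a correlation of -0.0907 over 1143 genes. With 2 libraries per group, this value cannot show whether same-numbered samples were paired. With the replicate number as a block, 31 models were past the thresholds (10.2% of all listed genes, 29 of the 41) and 4 past the adjusted p.

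Some named ratios turned sign. With DESeq2 size factors, TMM factors and the Wald test, 9430015G10Rik was -0.090, -0.084 and -0.091, and Gm49336 was -0.031, -0.027 and -0.035. Gm23935 was -0.20 with limma-voom and -0.0048 with the block. Leaving out 1 library at a time gave ranges that cross 0 for 11 models: -1.01 to 0.95 for Gm23935, -0.72 to 0.99 for Gm20695, -0.027 to 0.87 for Gm47283, -0.49 to 0.016 for Gm16867, -0.54 to 0.53 for Gm49336, -0.16 to 0.18 for 9430015G10Rik, -0.0043 to 4.62 for Gm38394, -0.56 to 0.092 for 4930438A08Rik, -0.28 to 0.070 for 6430548M08Rik, -0.35 to 0.051 for Gm42715 and -0.235 to 0.019 for Gm49342. The cause was not tested. Counts below the floor limit what could be detected in the Sedentary libraries.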
